A study of Mus musculus with 8 samples.

Results

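The transcripts described here belong to 9 genes of insulin signalling and insulin-driven glucose uptake: Insr, Irs1, Irs2, Akt2, Slc2a4, Tbc1d4, Pik3r1, Foxo1 and Grb14. They were chosen by name, and each symbol matched 1 of the 55487 gene identifiers in the tables. RNA was sequenced from epididymal white adipose tissue, the fat pad beside the epididymis, of 8 male C57BL/6 mice made obese on a high-fat diet. All 8 mice carried floxed copies of Slc16a1, the gene of the lactate and ketone body carrier MCT1. The 4 AKO mice also carried AP2-Cre, a transgene that makes the recombinase under the Fabp4 promoter, which is active in adipocytes and in part in macrophages, and they are labelled Slc16a1 -/-. No Cre is named for the 4 WT mice, so the transgene and the intended deletion go together. No lean mice were part of the comparison.

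Insulin binds its receptor, a tyrosine kinase that phosphorylates the insulin receptor substrates, and these recruit phosphoinositide 3-kinase and activate the kinase AKT. In fat cells AKT2 acts on TBC1D4, which otherwise holds vesicles with the glucose transporter GLUT4 inside the cell, and on FOXO1, which leaves the nucleus once it is phosphorylated. Much of this control is by phosphorylation and by movement of proteins between compartments, which transcript levels do not measure.

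Values are in TPM, the share of a library's transcripts that a gene makes up once its length is allowed for, scaled to a sum of 1000000 and summed over the rows of a gene, so levels are per length and can be compared between genes. Read depth is unknown, and errors are SD over 4 mice. Total Slc16a1 lay between 15.7 and 28.47 TPM in WT and between 21.48 and 27.05 in AKO, so the gene total did not separate the groups and does not check the labels, which are used as given. Its first row lay between 10.84 and 17.65 TPM in WT and between 4.51 and 8.8 in AKO, without overlap. That row did not pass the test between genotypes described below (limma false discovery rate 0.598 over all rows tested). Groups were apart for 3.05% of all rows tested. The second row of Slc16a1 went the other way, at 12.51, 14.43, 0 and 0 TPM in WT mice 2 to 5 and between 13.57 and 22.54 in AKO. No source used here says which exons either row covers. Adipocyte markers were high in every library: the 12 listed genes summed to between 36714 and 65396 TPM in WT and between 39141 and 56670 in AKO. Of these, 11 of 12 had a log2 difference below 0 (median -0.20), but none passed the test between genotypes described below. The 5 markers of epididymal epithelium summed to between 0.23 and 7.73 TPM in all 8 libraries, with 7.73 in WT mouse 4, 4.64 in WT mouse 3 and at most 1.09 in the others.

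The 9 transcripts covered a wide range of levels. Akt2 was the most abundant at a mean of 181 TPM over the 8 mice, above 94.5% of the 14172 genes tested. Slc2a4, which encodes GLUT4, followed with 65.3, then Pik3r1 with 36.5, Grb14 with 26.9, Insr with 21.5, Foxo1 with 17.8, Irs2 with 16.5, Tbc1d4 with 16.2 and Irs1 with 3.09 TPM. The ranges of Akt2 and Slc2a4 were apart, as were those of Tbc1d4 and Irs1. All other neighbours in this order had overlapping ranges. Slc2a4 exceeded Pik3r1 in 8 of 8 mice, while Foxo1 exceeded Irs2 in 4 of 8 and Irs2 exceeded Tbc1d4 in 5 of 8.

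**Figure D1:**
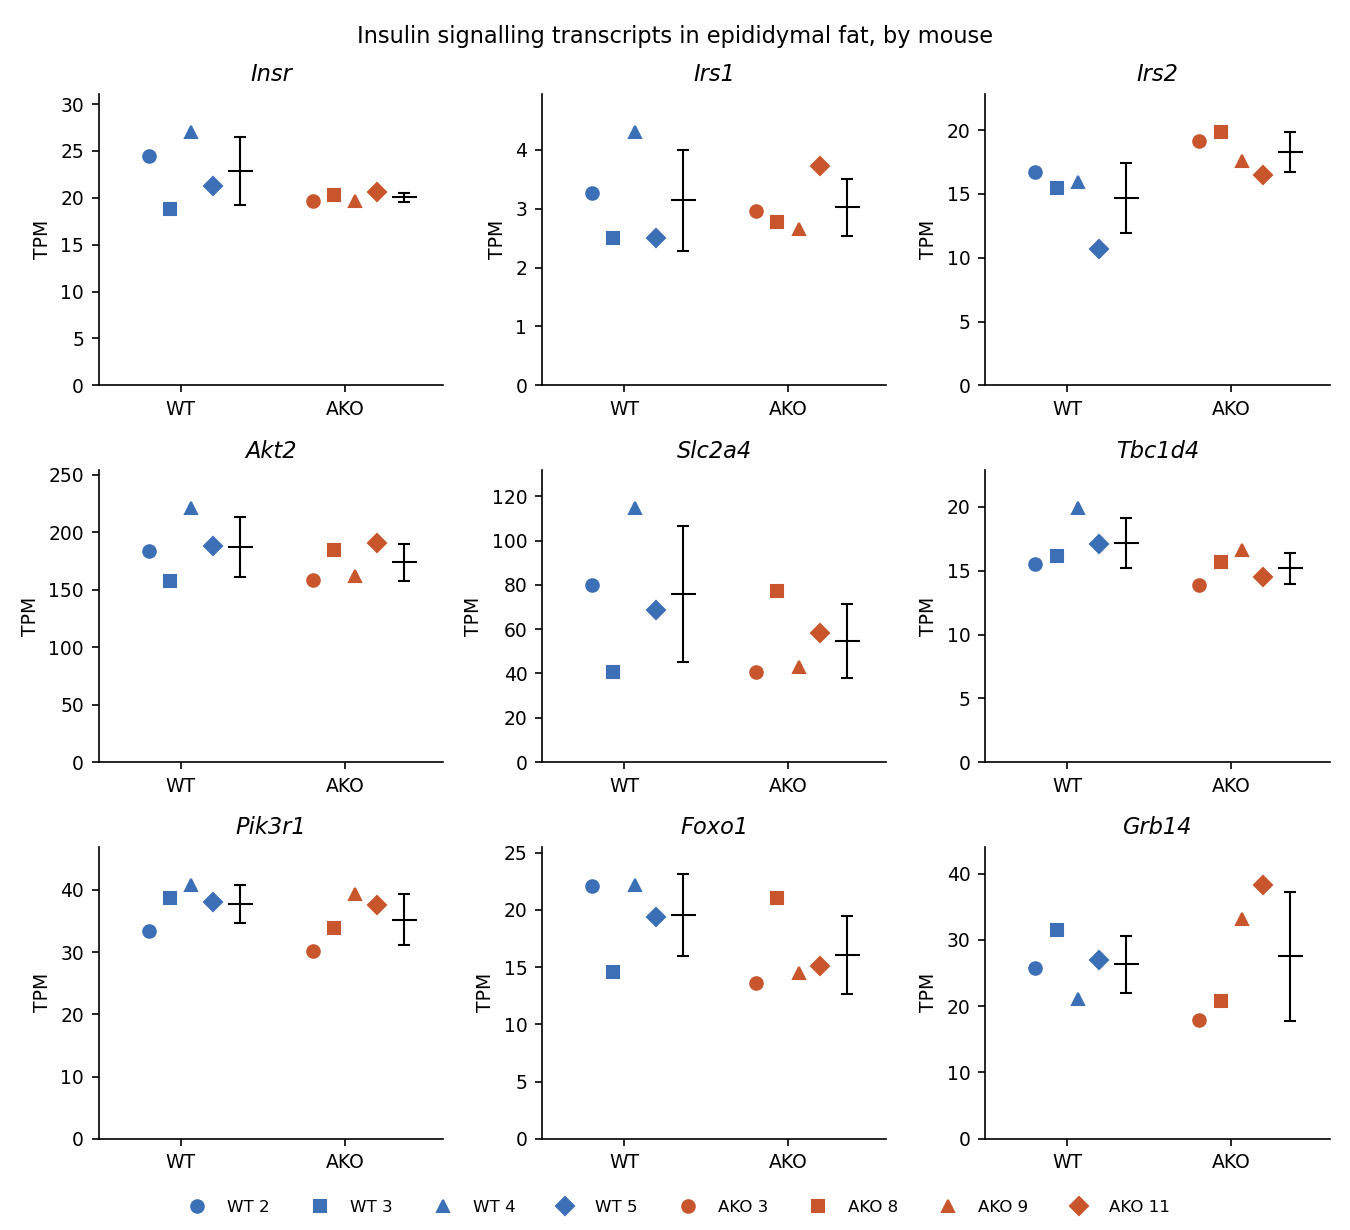
Level of each transcript in TPM (vertical axes from 0) in the 4 WT mice (blue) and 4 AKO mice (orange), 1 symbol per mouse, with the group mean and SD as black bars. WT and AKO overlap in all 9 panels, and Slc2a4 has the widest spread, from 40.49 to 114.57 TPM.

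No transcript of the 9 passed the test between the genotypes. The comparison used limma on log2(TPM + 1), where a log2 difference is AKO minus WT and the threshold is a false discovery rate (FDR) of 0.05 over all genes. By limma 0 of 9 members passed, where 0.0282% of all genes did (0.0212% higher and 0.00706% lower in AKO). At an unadjusted p below 0.05 there were 0 of 9 members, against 4.75% of all genes. Their FDR lay between 0.831 and 0.995. The groups overlapped for all 9 members, and were apart for 2.44% of all genes, with AKO above in 1.11% and below in 1.33%. Log2 differences were below 0 for 7 members and above 0 for 2, with a median of -0.10, where 46.2% of all genes were below 0 and the median was 0.02.

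**Figure D2:**
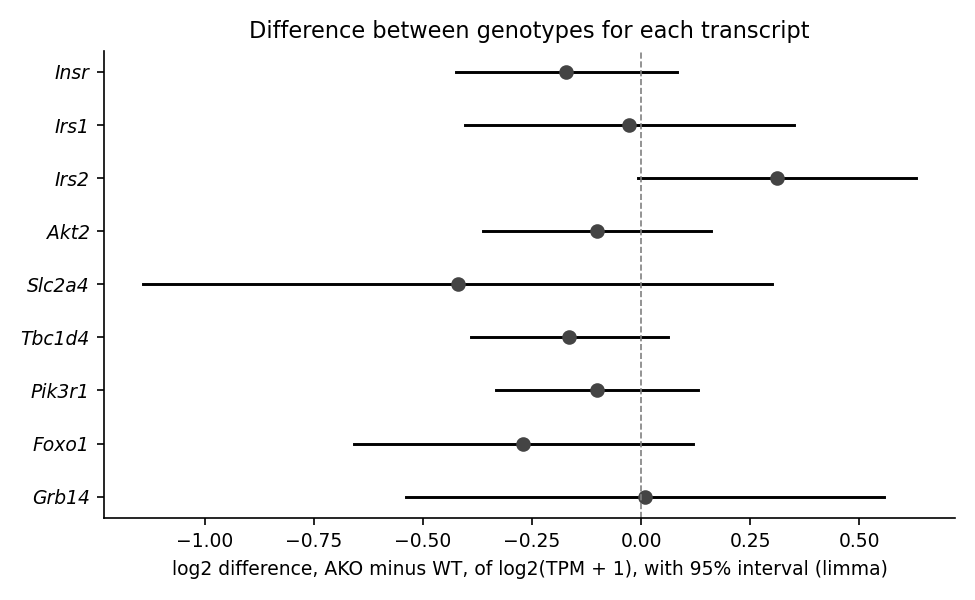
Log2 difference between AKO and WT for each transcript (horizontal axis, on the log2(TPM + 1) scale), with the 95% interval from limma as a line. All 9 intervals include 0, and that of Irs2 starts at -0.01.

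Insr (ENSMUSG00000005534, chromosome 8), the insulin receptor gene, had 24.46, 18.79, 27.07 and 21.26 TPM in WT (mice 2, 3, 4 and 5) against 19.63, 20.28, 19.62 and 20.63 in AKO (mice 3, 8, 9 and 11). The AKO mice lay within about 1 TPM of each other, while the WT mice ran from below all of them to well above. The means were 22.9 ± 3.62 (SD, n = 4) in WT and 20.04 ± 0.50 in AKO, a log2 difference of -0.17 (95% interval -0.42 to 0.08, limma FDR = 0.831). It was -0.09 without WT mouse 4 and -0.26 without WT mouse 3. The coefficient of variation was 15.8% in WT and 2.50% in AKO, and this contrast in spread was not tested.

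Grb14 (ENSMUSG00000026888, chromosome 2) encodes an adaptor that binds the activated receptor and restrains its kinase. It had 25.74, 31.49, 21.09 and 27 TPM in WT (mice 2, 3, 4 and 5) against 17.88, 20.76, 33.16 and 38.29 in AKO (mice 3, 8, 9 and 11). AKO held the lowest mice, 3 and 8, as well as the highest, 9 and 11, and the means were 26.3 ± 4.28 and 27.5 ± 9.77 TPM. The log2 difference of 0.01 had a 95% interval from -0.54 to 0.56 (limma FDR = 0.995), which leaves room for a difference in either direction. Its sign changed with the scaling between libraries. The log2 ratio of Grb14 to Insr averaged 0.20 ± 0.46 over WT and 0.39 ± 0.51 over AKO (two-sided exact permutation p = 0.629, adjusted p = 0.629 over 4 ratios). In the 4 WT mice the order of Grb14 was the reverse of that of Slc2a4, with WT mouse 3 highest in Grb14 and lowest in Slc2a4 and WT mouse 4 the opposite. The AKO mice did not follow that order, and 4 mice are too few for a correlation.

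The insulin receptor substrates are docking proteins that carry the signal from the receptor to phosphoinositide 3-kinase. Irs2 (ENSMUSG00000038894, chromosome 8) was the member with the smallest p. It had 16.69, 15.49, 15.92 and 10.68 TPM in WT (mice 2, 3, 4 and 5) against 19.17, 19.88, 17.57 and 16.49 in AKO (mice 3, 8, 9 and 11). Each AKO mouse was above the WT mean, and the groups overlapped by AKO mouse 11 and WT mouse 2 alone. The means were 14.7 ± 2.72 and 18.3 ± 1.53 TPM, a log2 difference of 0.31 (95% interval -0.01 to 0.63). The limma FDR was 0.831 and the unadjusted p 0.0539. The two-sided exact permutation p over the 70 arrangements of the mice was 0.0571, where the smallest possible is 0.0286. Without WT mouse 5, the lowest, the log2 difference was 0.18.

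Irs1 (ENSMUSG00000055980, chromosome 1) was the lowest of the 9, at 3.27, 2.5, 4.31 and 2.5 TPM in WT (mice 2, 3, 4 and 5) against 2.96, 2.77, 2.65 and 3.73 in AKO (mice 3, 8, 9 and 11). WT mouse 4 was highest and AKO mouse 11 next, so the high values were not on the side of either genotype. The means were 3.15 ± 0.857 and 3.03 ± 0.485 TPM (log2 difference -0.03, limma FDR = 0.977), and the sign turned without WT mouse 4 (0.10). Irs2 exceeded Irs1 by 3.69 to 7.18 times in the 8 mice. The log2 ratio of Irs2 to Irs1 was 2.24 ± 0.32 in WT and 2.60 ± 0.31 in AKO, a difference of 0.36 (two-sided exact permutation p = 0.143, adjusted p = 0.419 over 4 ratios). Irs3, a substrate gene with high levels in rodent fat, had 39.6 ± 12.3 and 34.2 ± 4.72 TPM, above both, and Irs4 was at or near 0 in all libraries.

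The promoters of Irs1 and Irs2 are printed because these genes share a role and differed in level and in pattern across the mice, and because their windows hold 2 motifs that the windows of the other members lack. The windows are the 250 bases before the RefSeq start site in build GRCm38.p6, read on the strand that RefSeq gives for the gene. They lie at chr1:82291440-82291689 (minus strand) for Irs1 and chr8:11008930-11009179 (minus strand) for Irs2. As a check, bases shortly after each start site were compared with the GENCODE M21 transcripts of the gene. The other member windows matched in the sense of the transcript, but those of Irs1 and Irs2 matched in neither direction. Their strand and start site therefore rest on RefSeq alone. Capitals mark TGTTTTG, a motif of insulin response elements that FOXO factors bind, and the E-box CACGTG.
Irs1: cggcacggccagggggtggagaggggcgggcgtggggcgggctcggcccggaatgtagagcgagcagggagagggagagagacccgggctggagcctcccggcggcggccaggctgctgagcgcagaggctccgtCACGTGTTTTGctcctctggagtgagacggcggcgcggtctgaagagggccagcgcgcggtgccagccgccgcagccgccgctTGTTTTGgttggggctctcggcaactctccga
Irs2: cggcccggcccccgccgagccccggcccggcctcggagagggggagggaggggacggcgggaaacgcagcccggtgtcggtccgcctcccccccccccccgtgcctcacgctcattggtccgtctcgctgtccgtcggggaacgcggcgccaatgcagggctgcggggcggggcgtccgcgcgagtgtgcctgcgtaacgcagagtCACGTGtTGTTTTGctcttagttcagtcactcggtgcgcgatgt

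Both strands were searched for these motifs and 3 others, each spelled out with its count. TGTTTTG occurred 2 times in the Irs1 window and 1 time in that of Irs2, and stood in 5.56% of the 32851 promoter windows of this length. CACGTG occurred 1 time in each and stood in 6.02% of windows. In Irs1 the 2 motifs overlap by 2 bases and begin 115 and 111 bases before the start site. In Irs2 they are 1 base apart and begin 44 and 37 bases before it. The FOXO core motif TGTTTAC, in 3.17% of windows, occurred in 0 of the 11 member windows, which belong to 7 of the 9 members. Akt2, Tbc1d4, Pik3r1, Foxo1 and Grb14 had neither TGTTTTG nor CACGTG in their windows. The GC box GGGCGG, in 32.74% of windows, occurred in at least 1 window of each of the 7, and TGACG, a part of the cAMP response element found in 17.77%, in windows of Irs1, Akt2 and Pik3r1. In Irs1 TGACG, read on the opposite strand, overlaps the E-box. A match of letters is a description of the window and not a measurement of binding.

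Pik3r1 (ENSMUSG00000041417, chromosome 13) encodes p85 alpha, the main regulatory subunit of phosphoinositide 3-kinase, and was the steadiest of the 9, with a coefficient of variation of 9.90% over the 8 mice. It had 33.44, 38.7, 40.78 and 38.09 TPM in WT (mice 2, 3, 4 and 5) against 30.18, 33.8, 39.32 and 37.55 in AKO (mice 3, 8, 9 and 11). AKO mouse 3 was lowest and WT mouse 4 highest, with the other 6 mice mixed between them. The log2 difference was -0.10 (95% interval -0.33 to 0.13, limma FDR = 0.864). It was -0.03 without AKO mouse 3, -0.06 without WT mouse 4, and -0.16 without WT mouse 2 or without AKO mouse 9.

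Akt2 (ENSMUSG00000004056, chromosome 7) encodes the AKT kinase on which insulin-driven glucose uptake in fat mainly depends. It had 183.51, 157.28, 220.89 and 187.75 TPM in WT (mice 2, 3, 4 and 5) against 158.05, 184.71, 162.12 and 190.71 in AKO (mice 3, 8, 9 and 11). WT mouse 3 was lowest, close to AKO mice 3 and 9, and WT mouse 4 stood highest. The means were 187 ± 26.1 and 174 ± 16.2 TPM (log2 difference -0.10, 95% interval -0.36 to 0.16, limma FDR = 0.880). Without WT mouse 4 it was -0.02, and it ran from there to -0.18 without WT mouse 3. Akt2 exceeded Akt1, its more widely expressed relative, by 1.44 to 3.04 times. The log2 ratio of Akt2 to Akt1 averaged 1.14 ± 0.40 over WT and 0.83 ± 0.33 over AKO (two-sided exact permutation p = 0.286, adjusted p = 0.419 over 4 ratios). That difference was -0.16 without WT mouse 4 and -0.48 without WT mouse 3.

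Tbc1d4 (ENSMUSG00000033083, chromosome 14) encodes the Rab GTPase-activating protein AS160, the AKT substrate that retains GLUT4 vesicles. It had 15.55, 16.15, 19.9 and 17.09 TPM in WT (mice 2, 3, 4 and 5) against 13.88, 15.65, 16.64 and 14.54 in AKO (mice 3, 8, 9 and 11). Each AKO mouse was below the WT mean of 17.2 ± 1.93 TPM, with overlap in the middle of the range. The AKO mean was 15.2 ± 1.22, and the log2 difference was -0.16 (SE 0.10, limma FDR = 0.831, exact permutation p = 0.143). It was -0.10 without WT mouse 4.

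Slc2a4 (ENSMUSG00000018566, chromosome 11), the GLUT4 gene, had the largest difference and the largest spread. It had 79.8, 40.49, 114.57 and 68.84 TPM in WT (mice 2, 3, 4 and 5) against 40.55, 77.17, 42.92 and 58.09 in AKO (mice 3, 8, 9 and 11). The 3 lowest mice, WT 3, AKO 3 and AKO 9, lay within 3 TPM of each other, and the highest, WT 4, was 2.83 times the lowest. The means were 75.9 ± 30.6 and 54.7 ± 16.9 TPM, so that AKO had 72.0% of the WT mean. The log2 difference was -0.42 with a 95% interval from -1.14 to 0.30 (limma FDR = 0.831, exact permutation p = 0.314). It was -0.19 without WT mouse 4 and -0.69 without WT mouse 3. Slc2a1, the gene of the insulin-independent transporter GLUT1, had 8.95 ± 1.35 and 10.06 ± 1.75 TPM. The ratio of Slc2a4 to Slc2a1 ran from 3.29 in AKO mouse 3 to 15.4 in WT mouse 4, and its log2 difference was -0.59 (exact permutation p = 0.314, adjusted p = 0.419). The latter was -0.28 without WT mouse 4, -0.36 without AKO mouse 3 and -0.95 without WT mouse 3.

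Foxo1 (ENSMUSG00000044167, chromosome 3) encodes the transcription factor that AKT keeps out of the nucleus. It had 22.12, 14.54, 22.17 and 19.4 TPM in WT (mice 2, 3, 4 and 5) against 13.63, 21.05, 14.51 and 15.05 in AKO (mice 3, 8, 9 and 11). The mice fell into 4 low (WT 3 and AKO 3, 9 and 11) and 4 high (WT 2, 4 and 5 and AKO 8), so both genotypes were in both. The means were 19.6 ± 3.59 and 16.06 ± 3.38 TPM (log2 difference -0.27, 95% interval -0.66 to 0.12, limma FDR = 0.831). That difference was -0.40 without WT mouse 3 or without AKO mouse 8. It was -0.20 without AKO mouse 3 and -0.21 without WT mouse 2 or without WT mouse 4.

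The tables hold 58 rows for the 9 genes, taken here to be transcripts, with no name for the transcript of a row. Irs1, Irs2 and Foxo1 had 1 row each. Of the 58 rows, 10 were listed at 0 in all libraries and 22 were high enough to test. By limma over 33323 rows, 0 of these 22 passed, where 0.021% of all rows did, and 0 had an unadjusted p below 0.05, against 5.56% of all rows. The groups overlapped for all 22, and were apart for 3.05% of all rows. In Slc2a4 the first row held between 76.3% and 85.5% of the gene in every mouse, in Grb14 between 94.2% and 99.9%, and in Pik3r1 the second row held between 82.0% and 96.9%. Insr was split between its first row (mean share 44.7%) and its sixth (45.2%). Its seventh row had 5.77 TPM in WT mouse 4 and 4.29 in AKO mouse 11, but 0 in WT mouse 3 and 0.01 in AKO mouse 8. Part of the high Insr total of WT mouse 4 therefore sits in that unsteady row. Akt2 was spread over a first row with a mean share of 61.2% and a fourteenth row with 22.9%.

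The members were next compared with each other across the 8 mice. Slc2a4, Foxo1, Akt2 and Insr were largely high and low in the same mice, though in AKO Insr stayed between 19.62 and 20.63 TPM. AKO mouse 11 was the highest of AKO in Insr and Akt2 but among the low mice of Foxo1. Of 36 pairs, 5 had a Pearson r that passed after Benjamini-Hochberg adjustment, all of them among these 4 genes. They were Slc2a4 with Foxo1 (r = 0.932, exact permutation p = 0.000992, adjusted p = 0.0179), Slc2a4 with Insr (r = 0.883, p = 0.000744, adjusted p = 0.0179), Slc2a4 with Akt2 (r = 0.938, p = 0.00335, adjusted p = 0.0402), Insr with Akt2 (r = 0.835, p = 0.00454, adjusted p = 0.0408) and Insr with Foxo1 (r = 0.781, p = 0.00573, adjusted p = 0.0412). The last pair of the 4, Akt2 with Foxo1, had r = 0.763 (exact permutation p = 0.0374, adjusted p = 0.150). By Spearman's rho 0 of 36 pairs passed. The rho was 0.929 for Slc2a4 with Foxo1 (exact permutation p = 0.00223, adjusted p = 0.0804), 0.905 for Slc2a4 with Insr, 0.762 for Slc2a4 with Akt2, 0.810 for Insr with Akt2 and 0.833 for Insr with Foxo1.

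With each group's mean removed, r was 0.919 for Slc2a4 with Foxo1, 0.934 for Slc2a4 with Akt2, 0.858 for Slc2a4 with Insr, 0.827 for Insr with Akt2 and 0.702 for Insr with Foxo1. Of 36 pairs 0 passed on these deviations, where the smallest p that the 576 pairings within groups allow is adjusted to 0.0625 if it stands alone. Without the 2 mice farthest from the median of the first gene, WT 3 and WT 4, r for Slc2a4 was 0.952 with Foxo1 and 0.849 with Akt2. Without WT 2 and WT 4, r for Insr was 0.803 with Slc2a4, 0.893 with Akt2 and 0.627 with Foxo1. The number of pairs that passed depended on the rows summed and on single mice. With the highest row of each gene in place of the sum, none of the 3 Insr pairs passed: r was 0.467 with Akt2 (adjusted p = 0.611), 0.733 with Slc2a4 (adjusted p = 0.236) and 0.854 with Foxo1 (adjusted p = 0.130). With median-ratio scaling Insr with Foxo1 had an adjusted p of 0.0629. The number was 0 when WT mouse 4 was left out, 1 for WT mouse 3, AKO mouse 3 or AKO mouse 9, 2 for WT mouse 5 and 3 for WT mouse 2. Without WT mouse 4, r for Slc2a4 with Foxo1 was 0.948 (adjusted p = 0.129). Foxo1 had 4 low and 4 high mice, which are too few to test whether a relation holds within either set.

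**Figure D3:**
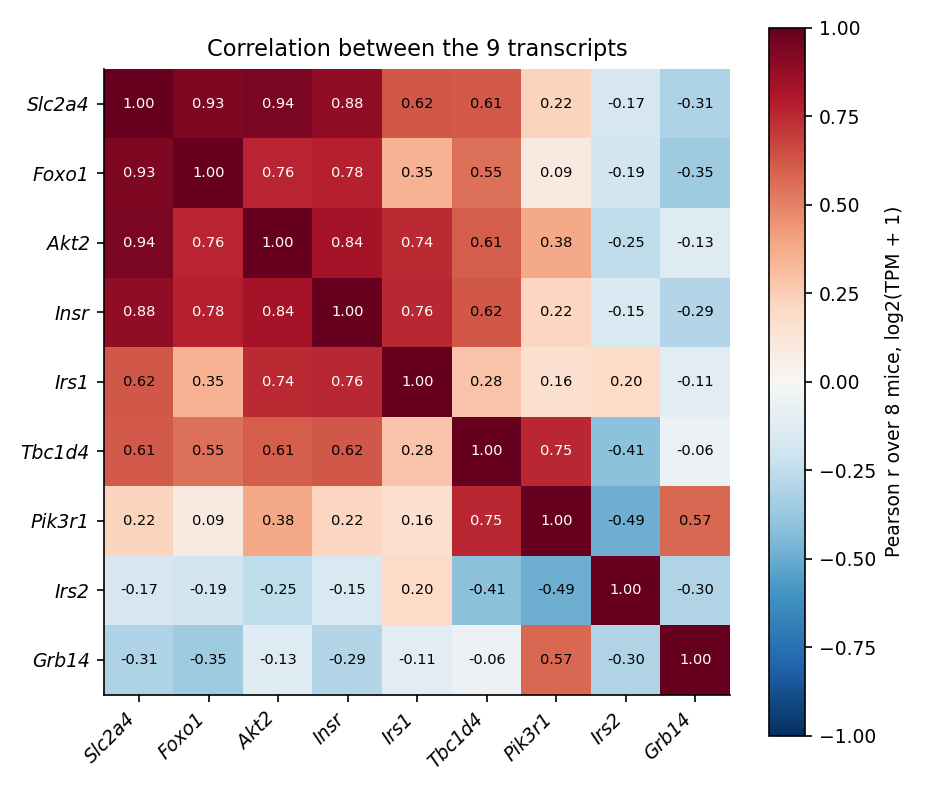
Pearson r between each pair of the 9 transcripts over the 8 mice, on log2(TPM + 1), from -1 (blue) to 1 (red). The dark red block at the upper left holds Slc2a4, Foxo1, Akt2 and Insr, with r from 0.76 to 0.94, and the rows of Irs2 and Grb14 are mostly blue.

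Irs2 had a negative r with 7 of its 8 partners and Grb14 with 7 of its 8, the positive ones being Irs1 for Irs2 (0.196) and Pik3r1 for Grb14 (0.574). With group means removed, the r of Irs2 was positive with Insr (0.301), Slc2a4 (0.149) and Foxo1 (0.207) and near 0 with Akt2 (-0.0542) and Tbc1d4 (-0.0410), while Grb14 kept the sign of r with each partner. Some signs of Grb14 turned in other ways. Its rho was 0.0714 with Akt2 and 0.143 with Tbc1d4. Without the 2 farthest mice its r was 0.366 with Akt2 and 0.0203 with Insr. The remaining partners of Grb14 kept their sign in both. None of the pairs of Irs2 or Grb14 passed, with adjusted p from 0.343 to 0.900. By Pearson's r over all 8 mice the 21 pairs among the other 7 genes were positive, from 0.0932 for Pik3r1 with Foxo1 to 0.938 for Slc2a4 with Akt2. The low ones were not steady: rho was -0.216 for Irs1 with Tbc1d4 and -0.0838 for Irs1 with Pik3r1, and r without the 2 farthest mice was -0.622, -0.747 and, for Pik3r1 with Foxo1, -0.201. Tbc1d4 and Pik3r1 had r = 0.753 (exact permutation p = 0.0290, adjusted p = 0.150), and r was 0.397 without WT mouse 4 and AKO mouse 3.

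The transcripts that moved together also followed the adipocyte markers of the same libraries. The summed level of the 12 adipocyte markers was 56053, 36714, 65396 and 46211 TPM in WT (mice 2, 3, 4 and 5) against 39244, 56670, 39141 and 51233 in AKO (mice 3, 8, 9 and 11). The high mice, WT 4, WT 2 and AKO 8, and the low mice, WT 3, AKO 3 and AKO 9, were those of Slc2a4. Over the 8 mice r with this sum was 0.960 for Slc2a4 (exact permutation p = 0.00102, adjusted p = 0.0111 over 27 relations with marker sums). It was 0.920 for Akt2 (exact permutation p = 0.00268, adjusted p = 0.0111), 0.858 for Foxo1 (p = 0.0188, adjusted p = 0.0462) and 0.831 for Insr (p = 0.00330, adjusted p = 0.0111). The rho was 0.929 for Slc2a4 (exact permutation, adjusted p = 0.0301) and 0.857 for Foxo1 (adjusted p = 0.0413). By rho Akt2 (0.786, adjusted p = 0.0685) and Insr (0.833, adjusted p = 0.0519) did not pass. Without WT mice 3 and 4 r was 0.922 for Slc2a4, 0.833 for Akt2, 0.809 for Foxo1 and 0.632 for Insr. Irs1 lay between, with r of 0.726 (exact permutation p = 0.0433, adjusted p = 0.0835), and 0.394 without WT mice 3 and 4. For Irs2 r was 0.0418, for Pik3r1 0.103, for Tbc1d4 0.430 and for Grb14 -0.275 (adjusted p of at least 0.445).

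Macrophage markers ran the opposite way. The 11 listed genes summed to between 2315 TPM in WT mouse 4 and 5357 in WT mouse 3, and to between 3697 and 6484 in AKO. Of the 11, 10 had a log2 difference above 0 (median 0.39), but none passed in limma. The r of their sum was -0.948 with Akt2 (exact permutation p = 0.00216, adjusted p = 0.0111), -0.892 with Slc2a4 (p = 0.00471, adjusted p = 0.0141) and -0.872 with Insr (p = 0.00211, adjusted p = 0.0111). The rho was -0.905 with Insr (exact permutation, adjusted p = 0.0411). With Akt2 and with Slc2a4 it was -0.786, which did not pass (adjusted p = 0.0685 for each). Leaving out WT mouse 4 and AKO mouse 9 gave r of -0.909 with Akt2, -0.767 with Slc2a4 and -0.725 with Insr. With Foxo1 r was -0.728, which did not pass (adjusted p = 0.0790), while rho was -0.857 and passed (exact permutation, adjusted p = 0.0413). Without WT mouse 4 and AKO mouse 9, r with Foxo1 was -0.602. With Irs1 r was -0.740 (adjusted p = 0.0790) and rho -0.407, and with Irs2 r was 0.380 (adjusted p = 0.489). For the lipid-associated macrophage list, which shares Lpl with the adipocyte list, 9 of 10 genes were above 0. The list had a median log2 difference of 1.17, and none of its genes passed in limma. Its r was -0.944 with Slc2a4 (exact permutation p = 0.00149, adjusted p = 0.0111) and -0.896 with Insr (p = 0.000322, adjusted p = 0.00871). The rho was -0.857 with Slc2a4 (exact permutation, adjusted p = 0.0413) and -0.976 with Insr (adjusted p = 0.0107). Leaving out the same mice gave r of -0.927 with Slc2a4 and -0.867 with Insr. For Akt2 r was -0.937 (exact permutation, adjusted p = 0.0111), but rho was -0.762 and did not pass (adjusted p = 0.0827). For Foxo1 r was -0.828 (adjusted p = 0.0283) and rho -0.857 (adjusted p = 0.0413). Without those mice r was -0.911 for Akt2 and -0.812 for Foxo1. None of the markers of these lists was at 0 throughout. In bulk tissue fewer cells of a type and less RNA per cell cannot be told apart, and TPM share a fixed total, so that a rise of some genes lowers others. The part of cell composition in the correlations and in the genotype differences was not tested.

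**Figure D4:**
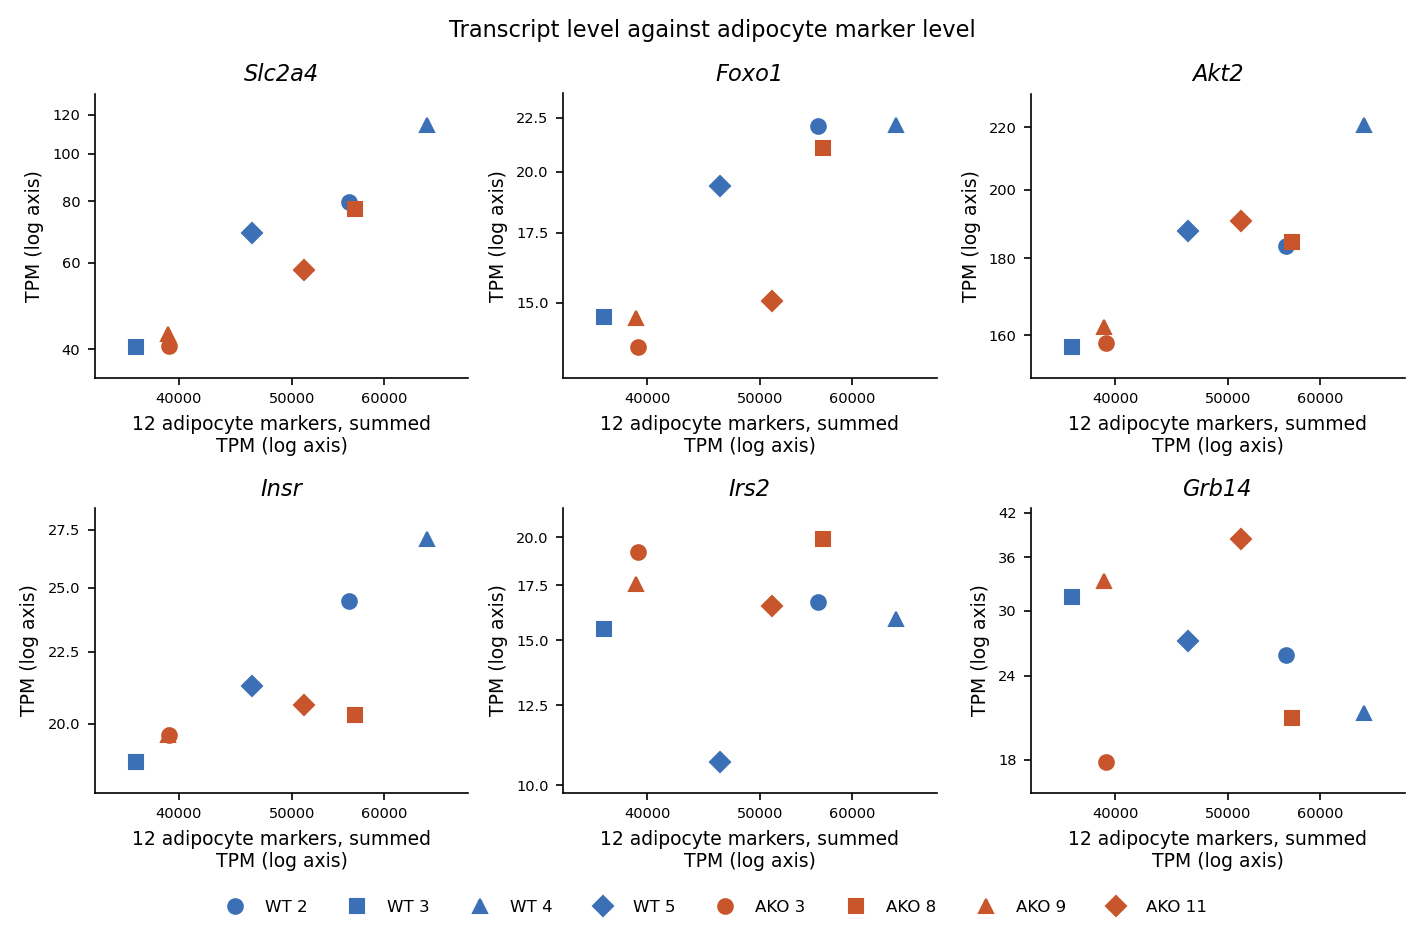
Level of 6 transcripts (vertical axes, TPM, log scale) against the summed level of 12 adipocyte markers (horizontal axes, TPM, log scale) in 4 WT mice (blue) and 4 AKO mice (orange), 1 symbol per mouse. Slc2a4, Foxo1 and Akt2 increase along the axis with both genotypes mixed. Insr increases mainly in WT and lies between 19.62 and 20.63 TPM in AKO, while Irs2 and Grb14 show no such line.

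With the summed adipocyte markers as a covariate in limma, an alternative chosen after seeing the data, the log2 difference of Slc2a4 was -0.23 (SE 0.08, unadjusted p = 0.0208, FDR = 0.556). That is smaller than without the covariate, with a smaller error. Irs2 had 0.33 (SE 0.14, unadjusted p = 0.0477, FDR = 0.564), Foxo1 -0.18, Insr -0.12 and Akt2 -0.04. None of the 9 passed in this fit either, which left 4 genes higher and 1 lower over the whole table. Of the other cell types listed, fibroblast and progenitor markers summed to between 1400 and 2532 TPM in WT and between 1781 and 2650 in AKO. Of these, 7 of 8 were above 0, and none passed in limma without the covariate. Endothelial markers had 397 to 756 and 498 to 692 TPM, mesothelial markers 21.8 to 57.9 and 11.8 to 47.2, and T and B cell markers 4.87 to 7.22 and 6.98 to 16.7. Skeletal muscle also expresses Slc2a4. Its 8 markers summed to between 15.9 and 69.7 TPM, and Ckm, Myh4, Myh1 and Tnnt3 were too low to test. The sum was highest in AKO mouse 8 (69.7 TPM) and WT mouse 2 (42.8), both high in Slc2a4. It was 23.1 in WT mouse 4, the highest in Slc2a4. The part of muscle RNA in the Slc2a4 level was not tested.

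Around the 9 members, 102 other genes of the pathway were grouped by role, and 96 were high enough to test. By limma 0 of 96 passed, with 48 above 0 and 48 below and a median log2 difference of 0.01, beside 0.02 for all genes. An unadjusted p below 0.05 was reached by 6.25% of them and by 4.75% of all genes. Groups were apart for 6.25% of them and for 2.44% of all genes. No list had a member past the threshold, so the counts below describe signs only.

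Genes that restrain the receptor had the highest median. Of 9 tested, 7 were above 0 and 2 below, with a median of 0.25, which was 0.15 without WT mouse 4. Ptpn1, the phosphatase PTP1B that dephosphorylates the receptor, had 39.3 ± 14.4 TPM in WT and 53.02 ± 14.3 in AKO. Enpp1, a membrane pyrophosphatase reported to bind the receptor, had 2.66 ± 1.28 and 4.07 ± 1.27, and Trib3, a pseudokinase that binds AKT, had 7.17 ± 1.38 and 8.67 ± 1.09. Ptpn1 was lowest in WT mouse 4 (27.13 TPM) and highest in AKO 3, AKO 9 and WT 3 (66.21, 64.42 and 60.23), the mice with the most macrophage marker RNA. Its limma FDR was 0.831.

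Receptor and adaptor genes had 5 above and 7 below 0 of 12 (median -0.08). Grb2, an adaptor that links receptors to the Ras pathway, had 107 ± 26.8 TPM in WT and 131 ± 29.6 in AKO. Phosphoinositide 3-kinase and lipid phosphatase genes had 7 above and 3 below of 10 (median 0.10, and 0.05 without WT mouse 3 or without WT mouse 5). Inppl1, the lipid phosphatase SHIP2, had 36.95 ± 4.63 and 43.3 ± 7.04 TPM. AKT kinases and their regulators had 6 above and 5 below of 11 (median 0.03). Mapkap1, a subunit of the mTORC2 complex that phosphorylates AKT, was lower in each AKO mouse than in each WT mouse, with means of 36.2 ± 2.02 TPM in AKO and 40.8 ± 1.82 in WT (log2 difference -0.17, limma FDR = 0.831).

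AKT substrates and effectors had 3 above and 11 below 0 of 14 (median -0.10). Gys1, glycogen synthase, had 33.8 ± 5.83 TPM in WT and 27.4 ± 3.48 in AKO. Tsc2, the tuberin gene, had 51.5 ± 11.8 and 40.8 ± 2.81 with no overlap, and Eif4ebp1, a repressor of translation, was the most abundant with 207 ± 50.6 and 172 ± 45.2. Genes of the GLUT4 vesicle and glucose entry had 14 above and 13 below of 27 (median 0.02). The hexokinase genes, whose products trap glucose as it enters, had opposite signs. Hk2, the insulin-responsive form, had 36.6 ± 4.96 and 27.9 ± 4.79 TPM (log2 difference -0.38, unadjusted p = 0.0255). Hk1, the general form, had 21.4 ± 2.64 and 27.4 ± 4.53 with no overlap (log2 difference 0.33, unadjusted p = 0.0309). Both had a limma FDR of 0.831. Rhoq, the small GTPase TC10 linked to GLUT4 movement, had 83.9 ± 12.8 and 68.9 ± 6.71 TPM.

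Among 13 regulators tied to the GLUT4 gene, 6 were above and 7 below 0 (median -0.09). Klf15, a Krüppel-like factor known to raise Slc2a4 in fat cells, had 37.61, 21.24, 46.76 and 40.91 TPM in WT (mice 2, 3, 4 and 5) against 21.64, 25.84, 15.35 and 25.41 in AKO (mice 3, 8, 9 and 11). WT mouse 3 lay with the AKO mice and the other 3 WT mice above them. Its log2 difference was -0.68 (SE 0.25, limma FDR = 0.831). Mlxipl, the gene of the carbohydrate-responsive factor ChREBP, had 25.7 ± 1.67 and 19.1 ± 2.85 TPM without overlap (unadjusted p = 0.00479, FDR = 0.831). Mef2c, a MEF2 factor of the family that binds the Slc2a4 promoter, had 10.9 ± 2.57 and 14.2 ± 1.78 TPM, and Pparg, the most abundant of the list, 165 ± 20.2 and 146 ± 20.2.

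**Figure D5:**
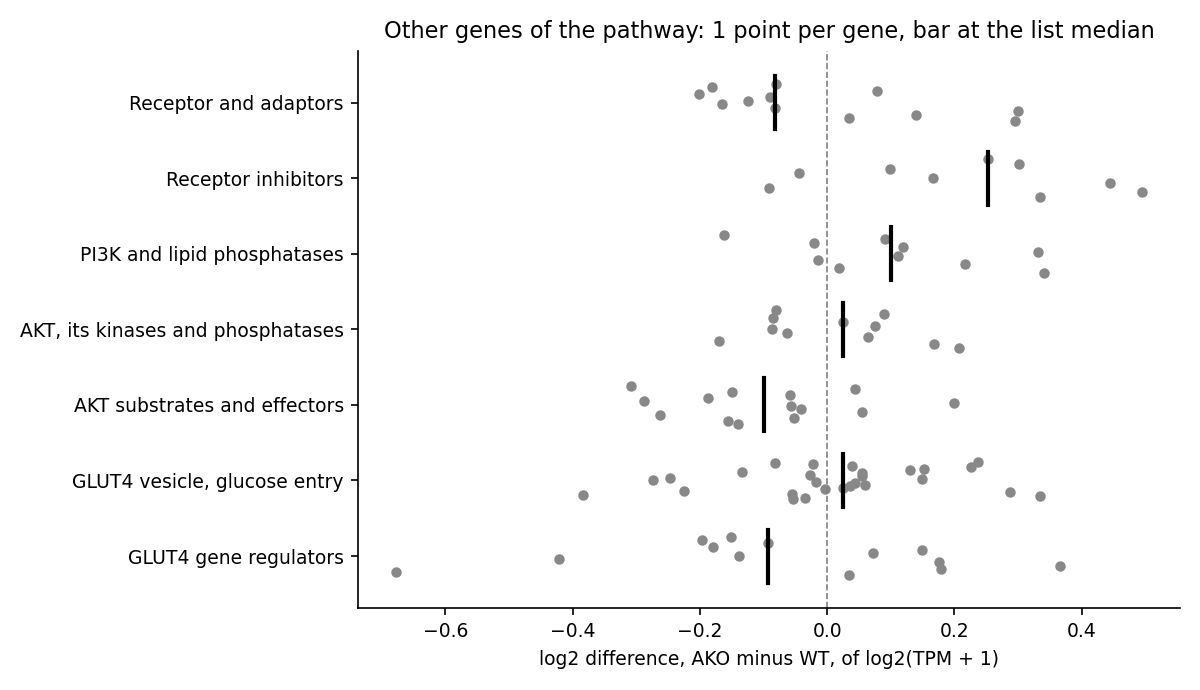
Log2 difference between AKO and WT (horizontal axis, log2(TPM + 1) scale) for the tested genes of the 7 role lists, 1 point per gene, with a bar at each list's median. Medians run from -0.10 for AKT substrates and effectors to 0.25 for receptor inhibitors, and Klf15 at -0.68 is the lowest point.

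Among 9296 named genes with a mean log2(TPM + 1) of at least 3, the pattern across the 8 mice most like that of Slc2a4 was that of Car5b, a mitochondrial carbonic anhydrase (r = 0.996, with the same rank order of mice), then Sh3glb1 (r = 0.991). Akt2 was closest to Chpt1, a choline phosphotransferase of phosphatidylcholine synthesis (r = 0.989), and Cdsn (r = 0.986). Insr was closest to Pfkfb1, a regulator of glycolysis (r = 0.984), and Kctd21 (r = 0.980), and Foxo1 to Hoxd8 (r = 0.986) and Trp53i13 (r = 0.971). Irs2 was closest to Nrp1, the neuropilin gene (r = 0.968), and Sprtn (r = 0.948). For the others the nearest were Letm1 and Atp5a1 for Pik3r1 (r = 0.971 and 0.948), Usp32 and Sorbs2 for Irs1 (0.944 and 0.940), Pitrm1 and Skiv2l for Tbc1d4 (0.930 and 0.928), and Tlr3 and Nme6 for Grb14 (0.910 and 0.907). These are the highest of many values from 8 mice and describe likeness only.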

How the data were processed

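Per the labels' protocols, frozen fat gave RNA by Trizol, and Illumina TruSeq libraries were made from it. The authors deposited 1 table per library with values in TPM, inferred from columns that sum to 1000000 within rounding, 152298 rows each. Per the submitters' processing notes HISAT2, DESeq2 and build mm9 were used in roles they do not state, and no source used here gives the quantifier or annotation. Rows were summed per gene identifier, and 401 rows without a gene were left out. Symbols and chromosome names come from GENCODE M21, promoter windows from RefSeq (GRCm38.p6), and Insr and Slc2a4 had no window. TPM hold no depth, so no counting error is given.

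Genes that reached 1 TPM in 4 or more libraries were fitted with limma 3.58.1 (R 4.3.3, mean-variance trend) on log2(TPM + 1), which understates the change of low genes. Single values used two-sided exact permutation over mice, which the labels number as separate animals. The code was tested on simulated data. Members, lists and tests were chosen with earlier results of these data known. In each list the 3 genes with the smallest p and the most abundant could be named, and for each member the 2 genes of highest r. Some genes that this rule allows are not reported here. Alternatives were a pseudocount of 0.1, no filter, the highest row per gene, 2 other scalings, sample weights, leaving out each mouse, and a covariate added after seeing the data.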

Additional observations from a re-analysis of the deposited data

How the results depend on the processing

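Over 15 alternative settings none of the 9 members passed in limma (lowest FDR 0.332), and 7 members kept their sign in all of them. Without single mice Insr ran from -0.26 to -0.09, Akt2 from -0.18 to -0.02, Pik3r1 from -0.16 to -0.03 and Tbc1d4 from -0.21 to -0.10. Irs1 turned to 0.037 with adipocyte markers as a covariate and ran from -0.11 to 0.10 when single mice were left out. Grb14 turned to -0.0022 with median-ratio scaling, -0.00075 without mitochondrial genes, -0.059 with sample weights and -0.032 with the covariate, and ran from -0.17 to 0.19 when single mice were left out. Over all genes, those higher in AKO numbered 5 with a pseudocount of 0.1 and from 1 (without WT 2, AKO 3 or AKO 11) to 3 without single mice. Those lower numbered from 0 (without AKO 3) to 2 (without WT 4). Member pairs that passed numbered 0 on deviations from group means and 2 with the highest row per gene and from 0 to 5 without single mice. The log2 ratio difference ran from -0.00068 to 0.37 for Grb14 to Insr, from -0.95 to -0.28 for Slc2a4 to Slc2a1 and from -0.48 to -0.16 for Akt2 to Akt1. Medians without single mice ran from -0.085 to -0.0070 for receptor and adaptor genes, from 0.15 to 0.33 for receptor inhibitors, from 0.050 to 0.14 for the phosphoinositide 3-kinase list, from -0.0013 to 0.072 for AKT and its regulators, from -0.023 to 0.018 for the GLUT4 vesicle list and from -0.13 to -0.040 for GLUT4 gene regulators. Causes were not tested. No paired analysis was possible because the groups share only the number 3, on different mice.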

Other observations

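The order of the letters around the E-box in the Irs1 and Irs2 promoters was noticed after the windows were read. In both, CACGTG is followed on the same strand by TGTTTTG, which begins 4 bases after the start of the E-box in Irs1 and 7 in Irs2. All 32851 RefSeq windows were then searched for TGTTTTG beginning 4 to 9 bases after the start of CACGTG, on either strand. The arrangement stood in 7 windows (0.021%), those of Irs1, Irs2, Irs4, Klf11, Pcbp1, Pyroxd1 and 1700019P21Rik, while 97 windows held both motifs at any distance. Irs3 had a window without it. The stretches of the 3 substrate genes, with both motifs in capitals, lie at chr1:82291536-82291562, chr8:11008952-11008981 and chrX:141725350-141725379 in GRCm38.p6, all on the minus strand.
Irs1: ggctccgtCACGTGTTTTGctcctctg
Irs2: cgcagagtCACGTGtTGTTTTGctcttagt
Irs4: gcgacggtCACGTGtTGTTTTGcccactgc

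The distance range was set from the matches themselves, so the count is a description and carries no test. The 3 substrate genes with the arrangement did not share a level in this fat. Irs2 had a mean of 16.5 TPM, Irs1 3.09 and Irs4 at most 0.01 TPM in any library.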
